A study of Homo sapiens with 4 samples.

Results

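The integrins and focal adhesion genes described here are 34 genes, picked by gene symbol from the 58735 genes of the deposited count table. They comprise 18 integrin subunits (12 alpha and 6 beta), the hyaluronan receptor CD44, and 15 adaptors and kinases that assemble on the inner face of integrins. Their RNA levels were compared between shSPTLC2 and shCON libraries of Hey-A8, a human ovarian cancer cell line. All 34 symbols were found. The rule that picks them uses no measured value, but the members were chosen with earlier results of these data known.

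The series holds 4 RNA-seq libraries of total RNA, 2 per group. The shCON libraries are labelled as the negative control genotype, with a scrambled hairpin, and the shSPTLC2 libraries as a knockdown of SPTLC2, which encodes a subunit of the enzyme that begins sphingolipid synthesis. All 4 share the cell line and the culture in RPMI-1640 medium with serum. The labels disagree on how the cells were made: the series design and the genotypes give a stable SPTLC2 knockdown, whereas the treatment text names transient transfection of hairpin plasmids against ZDHHC15, with harvest after 36 h. The groups here follow the titles. The labels do not say how many hairpins or clones were used, nor whether replicates were separate cultures, so p-values measure only the spread between these libraries, which may be technical.

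Integrins are receptors that join the cell to its matrix. Each is a pair of 1 alpha and 1 beta chain, and the beta 1 chain pairs with many alpha chains, which choose between laminin, collagen and fibronectin. Binding is switched on from inside when talin and kindlin proteins attach to the beta tail. A plaque then grows around the tails: talin and vinculin join it to actin, the complex of ILK, PINCH and parvin reinforces that link, and the kinases FAK and SRC with their scaffolds paxillin and p130Cas carry signals onward. In ovarian cancer these receptors are studied for attachment of tumour cells to the laminin, collagen and fibronectin of the peritoneal lining.

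Library totals lay between 14464784 and 15084966 counts. A count of 0 allows up to 3 counts, which equalled 0.195 to 0.206 CPM (counts-per-million, scaled by edgeR's TMM factors). The targeted gene SPTLC2 was at 58.6 and 60.6 CPM in the shCON libraries, against 39.8 and 43.0 CPM in the shSPTLC2 libraries, in the order of replicates 1 and 2, as are all pairs of values below. Both shSPTLC2 libraries lay below both shCON libraries, with a log2 fold change of -0.52 ± 0.12 (SE; edgeR adjusted p = 0.0063). Without shSPTLC2 replicate 1 the value was -0.47 (edgeR adjusted p = 0.134), without shSPTLC2 replicate 2 it was -0.58 (0.052), and over 12 alternatives the adjusted p ran from 4.2e-04 to 0.134. ZDHHC15 had 0 counts in all 4 libraries, so no change of it was detectable. Of 15313 genes tested, 2971 passed an adjusted p under 0.05, and the median log2 fold change of all tested genes was 0.0049. Of the calls, 53.6% were higher in shSPTLC2, against 65.1% with library totals in place of TMM and 44.2% after a correction for GC content. The calls fell to 640 without shSPTLC2 replicate 1 and 994 without shSPTLC2 replicate 2.

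Of the 34 genes, 29 had enough counts to be tested, 2 rose and 3 fell in shSPTLC2. ITGB4 and ITGA10, both integrin subunits of low abundance, rose. ITGB1, the common beta chain, and the adaptors TLN1 and PARVA fell. The 5 calls were 17.2% of the tested members, close to the 19.4% of all tested genes that were called. The 2 that rose compare with 10.4% of all tested genes called higher, and the 3 that fell with 9.00% called lower. In 16 of the 29 the 2 libraries of each group did not overlap, against 61.5% of all tested genes. The median log2 fold change of the tested members was 0.05. The share called is near that of all genes, and it is not a result about the members as a set. In bulk RNA, fewer cells of a kind and less RNA per cell cannot be told apart, and this holds for each change below. Calls over all genes fell when either shSPTLC2 library was left out, as given above, and calls of members fell too. All 5 called members kept their direction in those fits. Without shSPTLC2 replicate 2, ITGB1 (-0.57), TLN1 (-0.57) and PARVA (-0.43) lay farther from 0 than with all libraries. ITGB4 (1.51) and ITGA10 (1.15) lay nearer. Why the calls ended was not tested. Every call but that of ITGB4 ended without shSPTLC2 replicate 1, and every call ended without shSPTLC2 replicate 2. With all 4 libraries, 6 of the 29 had an unadjusted p under 0.05 in edgeR, against 5081 of all 15313 tested genes. With all libraries, DESeq2 called 4 members and limma 1, against 2063 and 1719 of all 15313 tested genes.

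**Figure D1:**
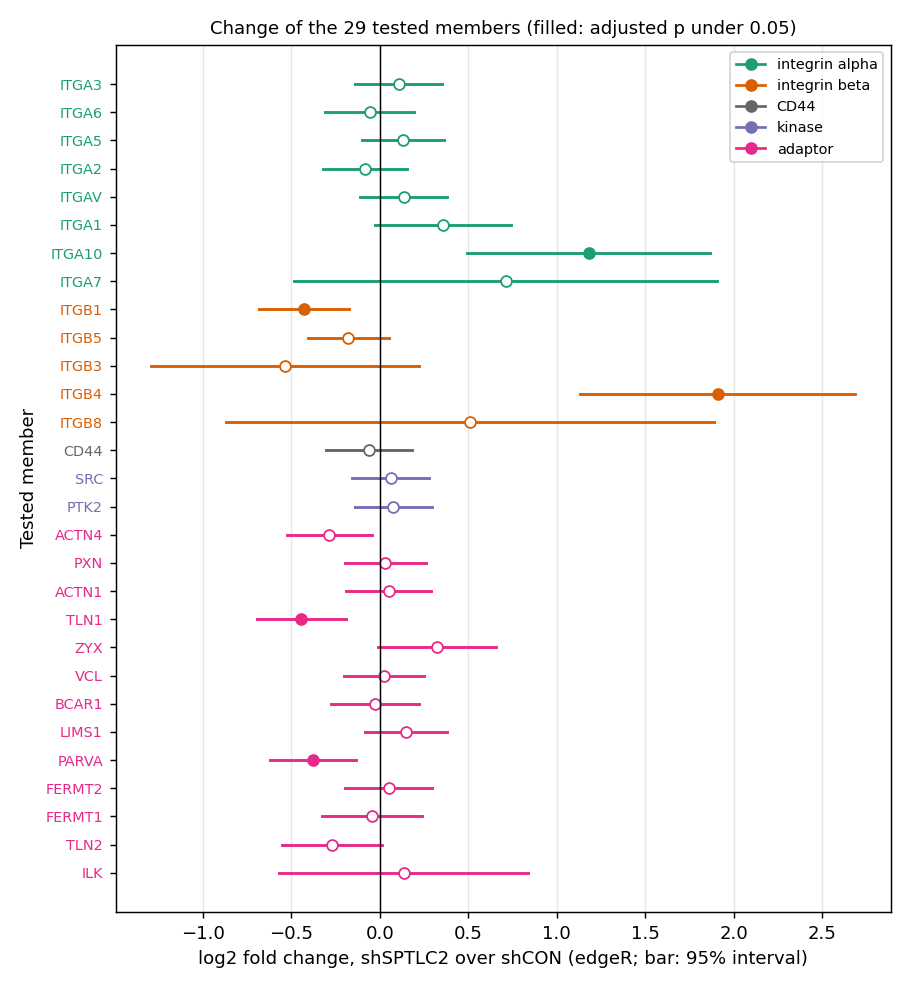
Log2 fold change (shSPTLC2 over shCON, edgeR, x axis) of the 29 tested members (y axis), with bars for the 95% interval and filled points for an adjusted p under 0.05. ITGB4 (1.91) and ITGA10 (1.18) lie to the right of 0, ITGB1 (-0.43), TLN1 (-0.44) and PARVA (-0.38) lie to the left, and the rest are open.

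More of the abundant genes were called, and most members are abundant. Among all genes of at least 100 CPM on average, 27.0% were called, against 4.56% of genes under 1 CPM. Of the members, 18 of the 29 were at 100 CPM or more, and 3 of those 18 were called. Another 4 lay between 1 and 10 CPM, where 13.7% of all genes were called, and 2 of them, ITGB4 and ITGA10, were called. The 5 members between 10 and 100 CPM had 0 calls, against 23.4% of all genes at that level.

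ITGB1 encodes the beta 1 chain, the partner of most alpha chains measured here. It lies on chromosome 10 from 32900319 to 33005792 on the minus strand (hg38; the coordinates of the other members are on the same build). It had 1294.7 and 1314.8 CPM in shCON against 880.4 and 1058.1 CPM in shSPTLC2. Both shSPTLC2 libraries were below both shCON libraries, and shSPTLC2 replicate 1 was the lower of them. The log2 fold change was -0.43 ± 0.12 (SE, edgeR adjusted p = 0.021), a ratio of 0.743. ITGB1 was called in 9 of 12 alternatives. The call ended without shSPTLC2 replicate 1 (-0.30, edgeR adjusted p = 0.346), without shSPTLC2 replicate 2 (-0.57, edgeR adjusted p = 0.062) and with limma on log2(FPKM + 0.5) (limma adjusted p = 0.058). Over the alternatives its adjusted p ran from 1.8e-04 to 0.346.

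The promoter-side bases of ITGB1, VCL and ITGA10 are shown to set a lowered, an uncalled and a raised member side by side. They come from RefSeq (GRCh38.p14), with 25 of the 34 members found in that table. Each stretch is the part upstream of a listed transcript start that lies outside exons, 5′ to 3′ on the gene's strand. Capitals mark the GC box (GGGCGG) and the TEAD motif (GGAATG), both searched on both strands. ITGB1 is at chr10:32958233-32958480 on the minus strand, VCL at chr10:73997866-73998113 on the plus strand and ITGA10 at chr1:145910190-145910300 on the minus strand.
ITGB1: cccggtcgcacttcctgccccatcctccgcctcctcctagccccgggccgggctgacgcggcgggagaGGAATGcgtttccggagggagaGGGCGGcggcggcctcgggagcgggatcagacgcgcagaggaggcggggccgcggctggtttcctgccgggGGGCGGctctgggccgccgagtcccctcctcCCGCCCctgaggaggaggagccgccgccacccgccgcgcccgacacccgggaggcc
VCL: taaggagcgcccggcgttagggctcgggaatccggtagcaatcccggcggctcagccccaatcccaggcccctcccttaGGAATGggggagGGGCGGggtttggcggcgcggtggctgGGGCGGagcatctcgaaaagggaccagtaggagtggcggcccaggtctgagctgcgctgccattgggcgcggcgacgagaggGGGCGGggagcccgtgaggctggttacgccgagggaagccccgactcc
ITGA10: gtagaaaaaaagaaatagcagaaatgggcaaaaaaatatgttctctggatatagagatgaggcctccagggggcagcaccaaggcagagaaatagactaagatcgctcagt

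The ITGB1 stretch shown has 3 GC boxes and 1 TEAD motif, and the 250 bases before the other ITGB1 start in the table have 0 of either. The VCL stretch has the same numbers, 3 and 1, and VCL was not called. The ITGA10 stretch, which is shorter at 111 bases against 248, has 0 of either, while its full window of 250 bases, which reaches into exons, holds 1 TEAD motif. Over the 250 bases before each start, a GC box was present in 54.8% of the members' 42 windows and in 42.6% of 35116 windows of all genes. The TEAD motif was in 14.3% against 11.9%. The CArG box was in 4.76% (2 windows, of ACTN1 and ITGB6) against 1.16%. Median GC content was 69% in the members' windows and 58% in all windows. A match is a description of the letters and was not tested as a site.

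ITGB1-DT, a long non-coding RNA gene on the plus strand of chromosome 10 from 32958845 to 33082102, begins on the opposite strand beyond this stretch. It was looked up after the ITGB1 values were seen. ITGB1-DT had 6.60 and 6.64 CPM in shCON and 2.71 and 4.23 CPM in shSPTLC2. Both shSPTLC2 libraries were lower, with no overlap. The log2 fold change was -0.93 ± 0.26 (SE, edgeR adjusted p = 0.021), and it was -0.65 (edgeR adjusted p = 0.245) without shSPTLC2 replicate 1. DESeq2 gave an adjusted p of 0.061. It was called in 10 of 12 alternatives, with an adjusted p from 0.0048 to 0.245. Of the exonic bases of ITGB1, 0.699% (42 bases) overlap ITGB1-DT, and the strand used in counting is not given in the sources used here. The share of the exonic bases of ITGB1-DT was not computed, so this percentage does not bound ITGB1 reads in its counts. Mean shCON levels were 1304.8 CPM for ITGB1 and 6.62 CPM for ITGB1-DT. Whether the ITGB1-DT counts include reads of ITGB1 was not tested.

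ITGB4 encodes the beta 4 chain, which pairs with alpha 6 in hemidesmosomes, the anchors of epithelial cells on laminin. ITGB4 (chromosome 17, 75721328 to 75757818) had 18 and 14 counts in shCON against 46 and 78 counts in shSPTLC2. These equal 1.21 and 0.959 CPM in shCON and 3.12 and 5.07 CPM in shSPTLC2. All shSPTLC2 counts were above all shCON counts, and shSPTLC2 replicate 2 was the highest. The log2 fold change was 1.91 ± 0.37 (SE, edgeR adjusted p = 0.0024), a ratio of 3.76. ITGB4 was called in 11 of 12 alternatives. The exception was without shSPTLC2 replicate 2 (1.51, edgeR adjusted p = 0.067). On the log2(FPKM + 0.5) scale, where the pseudocount lowers the change of low genes, limma gave 0.73 (limma adjusted p = 0.033).

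The remaining beta chains were not called. ITGB5, a chain that pairs with alpha V to bind vitronectin, was at 84.2 and 81.2 CPM in shCON and at 72.3 and 74.0 CPM in shSPTLC2. The groups did not overlap, yet the log2 fold change of -0.18 (95% interval -0.41 to 0.05) had an edgeR adjusted p of 0.274. ITGB3, the other common partner of alpha V, had 40 and 56 counts in shCON and 22 and 46 in shSPTLC2. The ITGB3 groups overlapped, and its interval was wide at -1.29 to 0.22. Of the ITGB3 exonic bases, 51.6% are shared with the annotated gene AC068234.1, so its counts are uncertain. ITGB8, an activator of latent TGF-beta together with alpha V, had 3 to 10 counts per library and a log2 fold change of 0.51 (95% interval -0.87 to 1.89). ITGB6, the epithelial partner of alpha V, had 1, 1, 1 and 5 counts and was not tested.

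**Figure D2:**
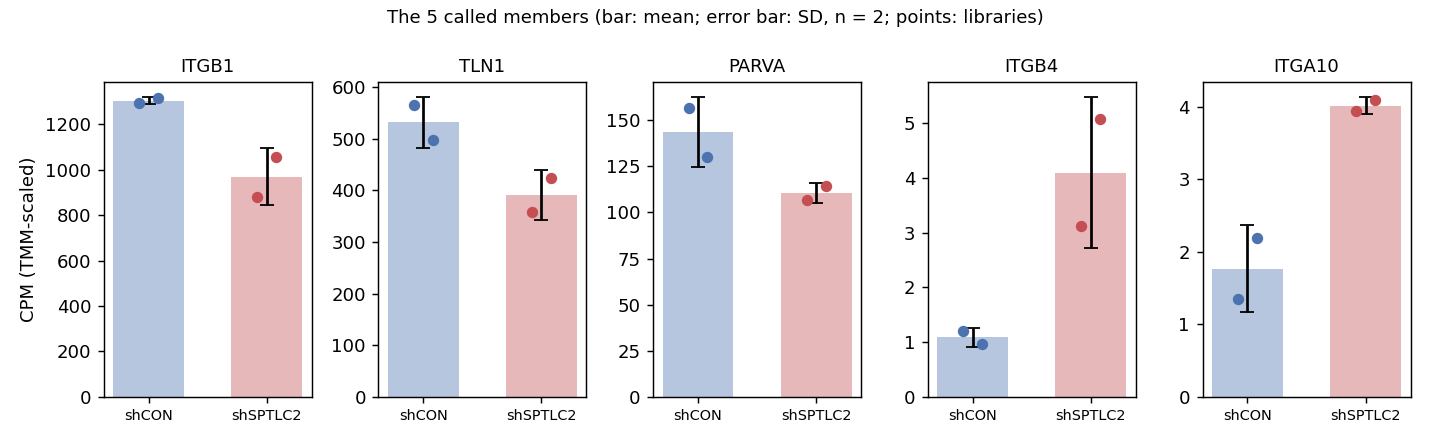
CPM (TMM-scaled, y axis, linear from 0) of the 5 called members in shCON and shSPTLC2 (x axis), with bars for the mean, error bars for the SD (n = 2) and a point per library. ITGB1, TLN1 and PARVA are lower in both shSPTLC2 libraries, and ITGB4 and ITGA10 are higher in both.

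Among the alpha chains, 1 of 8 tested was called, or 12.5%, against 19.4% of all tested genes. ITGA10 encodes a collagen-binding alpha chain best known from cartilage. ITGA10 (chromosome 1, 145891208 to 145910189) had 20 and 32 counts in shCON against 58 and 63 counts in shSPTLC2, or 1.35, 2.19, 3.94 and 4.10 CPM. Both shSPTLC2 libraries were above both shCON libraries. The log2 fold change was 1.18 ± 0.32 (SE, edgeR adjusted p = 0.018), a ratio of 2.27. The call was the least steady of the integrin calls, at 7 of 12 alternatives, with an adjusted p from 0.0023 to 0.120. It ended with DESeq2 (DESeq2 adjusted p = 0.069), with limma on log2(FPKM + 0.5) (0.54, limma adjusted p = 0.053) and in edgeR without shCON replicate 1 (0.86, adjusted p = 0.081), shSPTLC2 replicate 1 (1.21, 0.120) or shSPTLC2 replicate 2 (1.15, 0.114).

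ITGA3 and ITGA6, the alpha chains of the laminin receptors, were the most abundant alpha subunits per length. ITGA3 (chromosome 17, 50055968 to 50090481) was at 1745.4 and 1703.0 CPM in shCON and 1757.0 and 1957.4 CPM in shSPTLC2. Both shSPTLC2 libraries were above both shCON libraries by a margin that missed the test: the log2 fold change was 0.11 (95% interval -0.14 to 0.35, edgeR adjusted p = 0.555), and it was -0.07 with the GC correction. ITGA6 was at 1117.5 and 1019.0 CPM in shCON and 953.6 and 1101.3 CPM in shSPTLC2, with overlap and a log2 fold change of -0.06 (95% interval -0.31 to 0.19). Its sign changed to 0.0035 without shCON replicate 1 and 0.05 without shSPTLC2 replicate 1. Together ITGA3 and ITGA6 held 77.9% and 77.1% of the summed alpha FPKM (fragments per kilobase, scaled to library depth) in shCON and 77.2% and 76.6% in shSPTLC2.

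The other alpha chains were not called. ITGA5, the fibronectin receptor chain, had a log2 fold change of 0.13 (95% interval -0.10 to 0.36). ITGAV, the vitronectin receptor chain, was at 0.14 (-0.11 to 0.38). ITGA2, a collagen receptor chain, was at -0.08 (-0.32 to 0.15). All 3 intervals spanned 0. ITGA1, a collagen receptor chain of lower level, had 192 and 141 counts in shCON and 198 and 238 in shSPTLC2, with no overlap and a log2 fold change of 0.36 (edgeR adjusted p = 0.181), and it was called without shCON replicate 1 alone (0.57, edgeR adjusted p = 0.024) among 12 alternatives, whose adjusted p ran up to 0.621. ITGA7, a laminin receptor chain of muscle, had 5 to 15 counts and an interval of -0.48 to 1.91. ITGA4 and ITGA8 had no count in any of the 4 libraries (0 counts), a limit of 0.206 CPM at most. ITGA9 had 0, 2, 2 and 2 counts and ITGA11 had 7, 0, 2 and 15, both too few to test in the main analysis. ITGA11 passed the count filter in 4 alternatives, with an adjusted p from 0.049 to 0.899, and was called in 1, without shCON replicate 1. There the only shCON library had 0 counts, so no fold change is given.

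**Figure D3:**
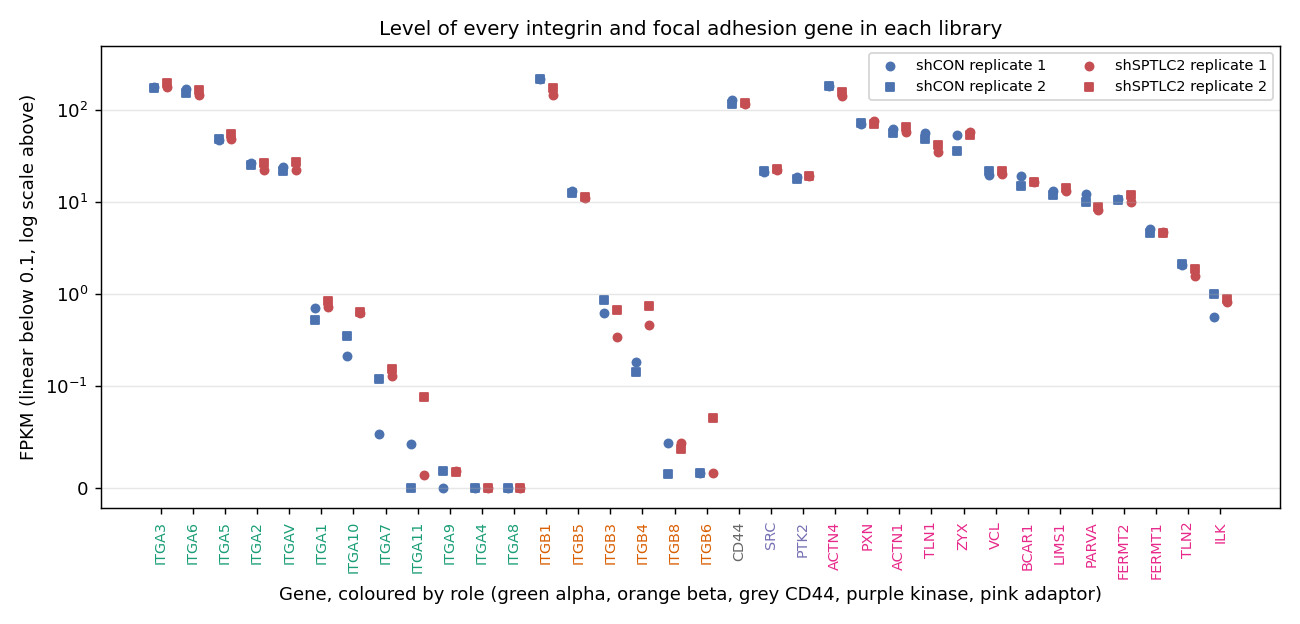
FPKM (y axis, linear below 0.1 and log scale above) of all 34 genes in each library, coloured by role, with genes along the x axis. ITGB1, ACTN4, ITGA3, ITGA6 and CD44 have mean shCON levels of 123 to 217 FPKM, while ITGA4 and ITGA8 sit at 0.

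Per length, the chains of laminin receptors were the most abundant subunits. By mean shCON FPKM, ITGB1 stood at 217 (SD 1.00, n = 2), ITGA3 at 176 (SD 4.15), ITGA6 at 163 (SD 11.7), ITGA5 at 48.2 (SD 1.17), ITGA2 at 26.1 (SD 0.953) and ITGAV at 23.0 (SD 1.63). In shSPTLC2 the order of the leading chains differed: ITGA3 was at 188 FPKM (SD 14.9), ITGB1 at 160 (SD 21.2) and ITGA6 at 156 (SD 16.3), with ITGB1 and ITGA6 within their spread of each other. ITGA2 and ITGAV, next to each other in the order, overlapped in their shSPTLC2 libraries.

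ITGB1 fell, and the summed level of its possible alpha partners overlapped between groups. The summed alpha FPKM was 449.6 and 425.2 in shCON and 417.2 and 478.0 in shSPTLC2. The ratio of that sum to ITGB1 FPKM was 2.08 and 1.95 in shCON and 2.88 and 2.73 in shSPTLC2, which do not overlap. ITGB1 held 93.9% and 94.1% of the summed beta FPKM in shCON and 92.4% and 93.1% in shSPTLC2, so it remained the main beta chain throughout. ITGB4 was 0.105% and 0.0909% of the ITGA6 level in shCON and 0.316% and 0.445% in shSPTLC2, small in both. These ratios were not tested. The smallest two-sided exact permutation p for 2 against 2 libraries is 0.333.

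**Figure D4:**
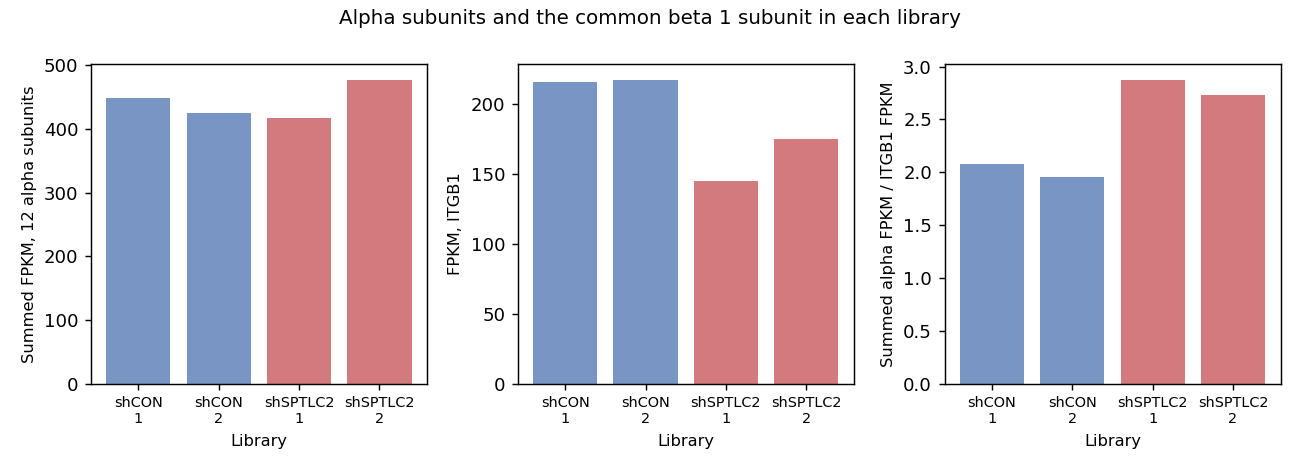
Alpha subunit and ITGB1 levels (FPKM) and their ratio in each of the 4 libraries (x axis). The alpha sum overlaps between groups, and the ratio is 1.95 to 2.08 in shCON and 2.73 to 2.88 in shSPTLC2.

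CD44, the hyaluronan receptor, was the member outside the integrin and plaque classes. CD44 had 1301.7 and 1170.8 CPM in shCON and 1181.3 and 1191.5 CPM in shSPTLC2. The groups overlapped, and the log2 fold change was -0.06 (95% interval -0.30 to 0.18, edgeR adjusted p = 0.754).

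Among the 15 adaptors and kinases, all of which were tested, 2 fell and 0 rose. Of all tested genes, 9.00% were called lower and 10.4% higher. At an unadjusted p under 0.05, 0 adaptors and kinases were higher and 3 lower by edgeR as described, by DESeq2 and by limma. Over all tested genes, 5081 of 15313 had an unadjusted p under 0.05 in edgeR. The counts of adaptors and kinases also differed among the fits with a library left out. In edgeR 1 was higher with library totals, with no low-count filter or with the replicate block, where 2, 4 and 3 were lower. SRC, the more abundant of the 2 kinases per length, was at 138.1 and 142.6 CPM in shCON and 145.6 and 147.5 CPM in shSPTLC2. Both shSPTLC2 libraries were above both shCON libraries, with a log2 fold change of 0.06 (95% interval -0.16 to 0.28), and with the GC correction it was -0.07. PTK2, which encodes FAK, was at 259.6 and 243.6 CPM in shCON and 264.4 and 266.7 CPM in shSPTLC2, a log2 fold change of 0.08 (95% interval -0.14 to 0.30). Neither kinase was called in the 12 alternatives.

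TLN1 encodes talin 1, which couples the beta tail to actin and activates the receptor. TLN1 (chromosome 9, 35696948 to 35732395) had 566.1 and 497.3 CPM in shCON against 357.5 and 424.8 CPM in shSPTLC2. All shSPTLC2 values were lower than all shCON values. The log2 fold change was -0.44 ± 0.12 (SE, edgeR adjusted p = 0.016). TLN1 was called in 9 of 12 alternatives, with an adjusted p up to 0.305. The call ended without shSPTLC2 replicate 1 (-0.32, edgeR adjusted p = 0.305), without shSPTLC2 replicate 2 (-0.57, edgeR adjusted p = 0.054) and with limma (limma adjusted p = 0.060). TLN2, the second talin, had a log2 fold change of -0.27 (95% interval -0.55 to 0.01, edgeR adjusted p = 0.170), and its libraries did not overlap. TLN1 held 95.7% to 96.4% of the talin FPKM in all 4 libraries.

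PARVA encodes alpha-parvin, an actin-binding partner of ILK. PARVA (chromosome 11, 12377185 to 12535356) had 156.9 and 130.1 CPM in shCON and 106.9 and 114.4 CPM in shSPTLC2. Both shSPTLC2 libraries were lower, and shCON replicate 1 was the highest. The log2 fold change was -0.38 ± 0.12 (SE, edgeR adjusted p = 0.032), and it was the least steady of all calls, held in 6 of 12 alternatives. It ended with library totals (edgeR adjusted p = 0.069), the GC correction (edgeR adjusted p = 0.050237) and limma (limma adjusted p = 0.102). In edgeR it also ended without shCON replicate 1 (-0.24, adjusted p = 0.108), shSPTLC2 replicate 1 (-0.33, 0.301) or shSPTLC2 replicate 2 (-0.43, 0.143). Over the alternatives its adjusted p ran from 1.1e-04 to 0.301.

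**Figure D5:**
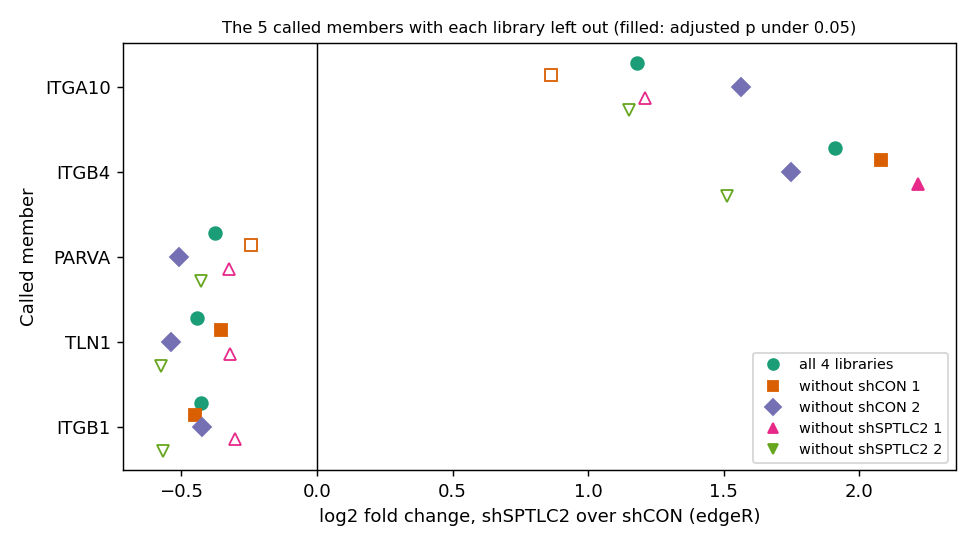
Log2 fold change (x axis) of the 5 called members (y axis) with all libraries and with each library left out in edgeR, filled where the adjusted p was under 0.05. Every point stays on its side of 0, and without shSPTLC2 replicate 2 none of the 5 is filled.

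The partners of alpha-parvin were not called. LIMS1, which encodes PINCH-1, had a log2 fold change of 0.15 (95% interval -0.08 to 0.38). The PARVA to LIMS1 ratio of FPKM was 0.921 and 0.851 in shCON and 0.619 and 0.618 in shSPTLC2, with no overlap. ILK, the integrin-linked pseudokinase, had only 29 and 51 counts in shCON and 42 and 48 in shSPTLC2, and its interval ran from -0.57 to 0.84. Its exons share 78.5% of their bases with other genes, 68.1% with TAF10 on the other strand, so its level is uncertain.

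The other plaque genes were not called. VCL, vinculin, was at 197.5 and 217.4 CPM in shCON and 202.0 and 220.4 CPM in shSPTLC2, a log2 fold change of 0.03 (95% interval -0.20 to 0.25). PXN, paxillin, was at 0.03 (-0.19 to 0.26) and BCAR1, p130Cas, at -0.03 (-0.27 to 0.22). FERMT1 and FERMT2, the kindlins, were at -0.04 (-0.32 to 0.24) and 0.05 (-0.19 to 0.30), and ACTN1, an actin crosslinker, at 0.05 (-0.19 to 0.29). These intervals bound each change rather than show that it is 0. Signs turned with the scaling for PXN (-0.12 with the GC correction), FERMT2 (-0.03 with it), FERMT1 (0.01 with library totals) and BCAR1 (0.03 with library totals).

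The uncalled ACTN4 and ZYX gained a call under some alternatives. ACTN4, alpha-actinin 4 and the most abundant adaptor per length, was at 1111.2 and 1126.5 CPM in shCON and at 869.6 and 968.0 CPM in shSPTLC2, with no overlap. Its log2 fold change was -0.28 (95% interval -0.52 to -0.05, edgeR adjusted p = 0.089). It was called in 3 of 12 alternatives: without shCON replicate 1 (-0.30, edgeR adjusted p = 0.018), without shCON replicate 2 (-0.28, 0.038) and with the GC correction (-0.40, 0.027). ZYX, zyxin, a sensor of tension on actin, was at 184.9 and 126.9 CPM in shCON and 203.2 and 187.0 CPM in shSPTLC2, and shCON replicate 2 was far below the rest. Its log2 fold change was 0.32 (95% interval -0.01 to 0.66, edgeR adjusted p = 0.164). It was called without shCON replicate 1 (0.61, edgeR adjusted p = 2.0e-06) and with the replicate block (0.35, 0.031). Without shCON replicate 2 it was 0.07 (edgeR adjusted p = 0.710), and it was 0.06 with the GC correction (0.801), the highest adjusted p of its 12 alternatives. The adjusted p of ACTN4 ran from 0.018 to 0.517.

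Set side by side, the subunits and the adaptors and kinases were called at 23.1% and 13.3%, that is 3 of 13 tested and 2 of 15 tested, on either side of the 19.4% over all genes. Among the subunits 2 rose and 1 fell, and among the adaptors and kinases 0 rose and 2 fell. Median log2 fold changes were 0.13 and 0.03. Libraries did not overlap in 8 of 13 and 8 of 15, against 61.5% of all genes. The difference between the classes was not tested. Of these calls, only that of ITGB4 held without shSPTLC2 replicate 1, and none held without shSPTLC2 replicate 2. With library totals 1 adaptor was called, against 2960 of all 15313 tested genes. With all 4 libraries, edgeR gave an unadjusted p under 0.05 for 3 of 13 subunits and 3 of 15 adaptors and kinases. Over all tested genes it did so for 5081 of 15313.

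Genes around the members came from lists of other integrins, adaptors, ligands, partners and actin regulators. The shares called in these lists were not tested. Among all genes, 23.4% were called at 10 to 100 CPM and 27.0% at 100 CPM or more. Of 8 other integrin genes 3 were tested, and ITGAX (0.65) rose and ITGB2 (-0.82) fell, both leukocyte chains. These 2 of 3 stand beside 19.4% of all tested genes. ITGB2 had 16.4 and 15.6 CPM in shCON and 10.3 and 7.74 CPM in shSPTLC2. ITGB2 was no longer called without shSPTLC2 replicate 2 (edgeR adjusted p = 0.103), and the call of ITGAX ended without shCON replicate 1 (0.096), shSPTLC2 replicate 1 (0.179) or shSPTLC2 replicate 2 (0.298), and with limma (limma adjusted p = 0.109). Of 42 other adhesion adaptors tested, 2 rose and 8 fell, with a median of -0.04, and the 23.8% called compares with 19.4% of all tested genes. NEDD9, a relative of p130Cas, fell most at -1.39 ± 0.29 (SE, edgeR adjusted p = 0.0040), from 4.98 and 5.48 CPM to 1.70 and 2.28 CPM. FYN, a SRC family kinase, had -0.48 ± 0.11 (SE, edgeR adjusted p = 0.0089) and TNS2, a tensin, 0.45 ± 0.11 (0.0114). Without shSPTLC2 replicate 1 none of these 3 adaptors was called (edgeR adjusted p of 0.077 to 0.176), and without shSPTLC2 replicate 2 the calls of FYN (0.054) and TNS2 (0.115) ended. TNS2 was not called with the GC correction either (0.25, edgeR adjusted p = 0.121), and limma gave -0.54 for NEDD9.

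Of 21 integrin ligands tested, 3 rose and 4 fell, with a median of -0.25, and the 33.3% called compares with 19.4% of all tested genes. Ligands that changed included SPP1, osteopontin, at -1.03 ± 0.14 (SE, edgeR adjusted p = 1.9e-04), ICAM1, a ligand of ITGB2 integrins, at -0.81 ± 0.11, and FBLN1, a matrix glycoprotein, at 0.67 ± 0.13. SPP1 had 38.0 and 35.7 CPM in shCON and 19.7 and 16.5 CPM in shSPTLC2. SPP1 and ICAM1 were called whichever library was left out. FBLN1 lost its call without shSPTLC2 replicate 2 (edgeR adjusted p = 0.065). Of 12 membrane partners tested, 1 rose (BSG, 0.57) and 2 fell (SLC3A2, -0.48, and SDC4, -0.34). These 3 were basigin, the CD98 heavy chain and syndecan 4. Leaving out shSPTLC2 replicate 1 removed the call of BSG (edgeR adjusted p = 0.091), and SLC3A2 lost its call without shSPTLC2 replicate 1 (0.085) or 2 (0.131). The SDC4 call ended without shCON replicate 2 (0.062), shSPTLC2 replicate 1 (0.407) or shSPTLC2 replicate 2 (0.115), with library totals (0.084), with the GC correction (0.055) and with limma (limma adjusted p = 0.090). The partner list was called at 25.0%, against 19.4% over all genes.

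Markers of the cell line were read beside these values. Of 10 ovarian and epithelial markers 7 were at 1 CPM or more in every library, with KRT8 at 1187 to 1267 CPM. Of the 7 tested, 2 rose, PAX8 from 272 and 294 CPM to 493 and 443 CPM (0.73 on the log2 scale, edgeR adjusted p = 4.4e-04, called in 12 of 12 alternatives) and MSLN (0.61, edgeR adjusted p = 0.016). In edgeR, MSLN was no longer called without either shSPTLC2 library (0.125 and 0.128) or with the GC correction (0.158), and its DESeq2 adjusted p was 0.055. CDH1, a defining epithelial marker, had 0 counts in every library and MUC16 had at most 1 count. The 2 called markers were 28.6% of those tested, against 19.4% of all tested genes. The 10 markers summed to 2524 to 2617 CPM in shCON and 2847 to 2886 CPM in shSPTLC2. VIM, a mesenchymal marker, was at 4062 to 5044 CPM. The 3 mesenchymal markers summed to 5303 and 4670 CPM in shCON and 4471 and 4325 CPM in shSPTLC2. Of these 3, 0 were called, and their median log2 fold change was -0.14. The 5 immune markers summed to 0.204 CPM or less. The 4 endothelial markers summed to 59.8 to 61.2 CPM in shCON and 110.2 to 132.3 CPM in shSPTLC2, nearly all CDH5, while PECAM1, VWF and KDR were at 2.09 CPM or less. CDH5 rose (1.09, edgeR adjusted p = 3.7e-05), PECAM1 fell (-1.71, edgeR adjusted p = 0.018, called in 7 of 12 alternatives and at up to 0.212), and their median was -0.80. The 4 fibroblast markers summed to 1.88 to 2.67 CPM in shCON and 5.53 to 6.99 CPM in shSPTLC2, mostly COL1A1, with DCN and LUM at 0. COL1A1, the 1 of them tested, rose (1.52, edgeR adjusted p = 0.0029), and that call ended without shSPTLC2 replicate 1 (1.35). The part of all these markers in the members' changes was not tested.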

How the data were processed

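Hey-A8 RNA was measured in 2 shCON and 2 shSPTLC2 libraries. The authors deposited raw read counts per gene and FPKM per gene for 58735 genes. Per the submitters' processing notes, the tools include HISAT2, SAMtools and StringTie, with genome build hg38. Which program counted reads, and whether by strand, is not given in the sources used here. The library kit was NEBNext Ultra, per the labels' protocols.

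Counts were tested in R 4.3.3 with edgeR 4.0.16: genes kept by filterByExpr (minimum count 10, minimum total 15), TMM scaling, a robust quasi-likelihood F test (two-sided) without covariates, and Benjamini-Hochberg adjustment over all 15313 tested genes, with an adjusted p under 0.05 called. SE is the log2 fold change over the root of F, intervals are 95% and unadjusted, and CPM are TMM-scaled. Intervals and floors cover counting error, or the spread of these libraries, only. FPKM, the deposited values, were used for levels between genes. Alternatives were RLE factors, library totals, DESeq2 1.42.0, no low-count filter, a 1 CPM filter, a replicate block, each library left out, a GC-content correction, and limma 3.58.1 on log2(FPKM + 0.5). The fit was tested on simulated data. The biological coefficient of variation was 10.1%. Chi-square tests between libraries of a group gave p under 0.05 for 36.7% (shCON) and 28.4% (shSPTLC2) of tested genes. Spread within a group thus exceeded counting error, which cannot show whether the libraries were separate preparations or cultures.

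The members, lists and naming rule were chosen with earlier results of these data known. All 34 members are named, and of each other list up to 4 called genes with the smallest adjusted p, of which 2 are not reported here. Of the 135 list genes, 2 were matched by Ensembl ID. ITGB1-DT, TAF10, ACTB and ACTG1, named outside that rule, were chosen after values were seen. Also outside it are AC068234.1 and the uncalled or untested markers KRT8, VIM, CDH1, MUC16, VWF, KDR, DCN and LUM. Overlap and GC content came from GENCODE 29 annotation, and promoter bases from RefSeq (GRCh38.p14).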

Additional observations from a re-analysis of the deposited data

How the results depend on the processing

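Of 358 recomputed values for members and SPTLC2, 310 kept direction and side of the threshold, 20 lost the call, 6 gained it and 22 changed sign, and the causes were not tested. Leaving out each replicate gave 0 to 7 called members, 0 to 4 integrin subunits, 0 to 3 adaptors and kinases, 640 to 4026 of all genes, and -0.58 to -0.47 for SPTLC2, and the lowest counts came without a shSPTLC2 library. With limma, 1 member, 1 subunit, 0 adaptors and kinases (3 at an unadjusted p under 0.05) and 1719 of all genes were called. DESeq2 called 4 members (1 higher, 3 lower) and 2063 of all genes. Library totals left 1 adaptor and 2960 of all genes. Signs changed among uncalled members. With the GC correction, log2 fold changes were -0.068 for ITGA3, -0.067 for SRC, -0.12 for PXN and -0.030 for FERMT2. With library totals, they were 0.011 for FERMT1 and 0.026 for BCAR1. Leaving out each replicate gave ranges across 0 for ITGA2 (-0.23 to 0.047), ITGA6 (-0.17 to 0.045), ITGAV (-0.018 to 0.28), ITGB8 (-0.097 to 1.57), CD44 (-0.14 to 0.011), PXN (-0.016 to 0.080), VCL (-0.050 to 0.091), ILK (-0.23 to 0.61), FERMT1 (-0.12 to 0.023), FERMT2 (-0.090 to 0.18), ACTN1 (-0.032 to 0.13) and BCAR1 (-0.18 to 0.13). The replicate block called 6 members, ZYX being the added one, and 3307 genes. Deviations of same-numbered libraries had a correlation of -0.0133 across genes, with only 2 pairs. This value cannot show whether same-numbered libraries shared a day or batch, which the labels do not state. Counts of 15 or fewer per library limit what ITGA7, ITGA9, ITGA11, ITGB6 and ITGB8 can show.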

Other observations

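Genes of a list of actins, myosins and proteins that bind or regulate them moved in both directions. Of 19 tested in a list of 20, 3 rose and 3 fell, with a median log2 fold change of -0.07, and the 31.6% called compares with 19.4% of all tested genes. CNN2, calponin 2, had 49.5 and 47.1 CPM in shCON and 84.0 and 91.3 CPM in shSPTLC2, a log2 fold change of 0.86 ± 0.11 (SE, edgeR adjusted p = 1.8e-04). TPM2, a tropomyosin, had 12.9 and 15.8 CPM in shCON and at least 26.1 CPM in both shSPTLC2 libraries, with 0.95 ± 0.15 on the log2 scale (SE, edgeR adjusted p = 6.7e-04). All shSPTLC2 values of both genes were above the shCON values, and both were called whichever library was left out. MYL9, a myosin light chain, was at 1.20 ± 0.23 and TPM3, another tropomyosin, at -0.42 ± 0.11 (SE). The calls of MYL9 and TPM3 ended without either shSPTLC2 replicate, at edgeR adjusted p of 0.071 and 0.079 for MYL9 and 0.208 and 0.137 for TPM3. ACTB and ACTG1, the actins, were not called, at -0.08 and 0.22.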
